A study of Mus musculus with 10 samples.

Results

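The genes of the core splicing machinery and its main regulators were followed through metabolic RNA labelling and nucleotide conversion in NIH-3T3 cells, an established line of mouse embryonic fibroblasts. Members were the genes whose symbol is Srsf followed by a number, begins with Hnrnp or Snrp, or begins with Sf3a or Sf3b and a number, together with Tra2a, Tra2b, U2af1 and U2af2. The rule found 55 of the 17053 genes in the deposited table: 10 SR protein genes, 2 Tra2 genes, 2 U2AF genes, 9 SF3 genes, 12 genes of Sm and other U snRNP proteins and 20 hnRNP genes. Wild-type cells were used in 10 libraries of total RNA, 2 replicates (A and B) in each of 5 groups. The cells were left untreated, or received uridine at 800 µM over 2 h, or, in 3 groups, 4-thiouridine (4sU) at the same dose and time, a uridine analogue that is incorporated into RNA made during that window. The RNA of the first 4sU group was sequenced unconverted, that of the SLAM group after alkylation with iodoacetamide, and that of the TUC group after osmium tetroxide and ammonium treatment. Both chemistries make labelled uridines read as cytidines, so the share of new RNA per gene, the new-to-total RNA ratio (NTR), can be estimated. The line is 1 immortalised fibroblast line, and the labels do not say whether A and B are separate cultures, so p-values measure only how these samples vary, and that variation may be technical.

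Splicing removes introns in the spliceosome, which is built from small nuclear ribonucleoproteins (snRNPs). A ring of Sm proteins (the products of Snrpb, Snrpd1, Snrpd2, Snrpd3, Snrpe, Snrpf and Snrpg) coats most spliceosomal snRNAs. U2AF reads the pyrimidine tract and the AG at the end of the intron, and the SF3A and SF3B complexes anchor the U2 snRNP at the branch point. SR proteins and the related Tra2 proteins bind exonic enhancers through RNA recognition motifs and recruit the machinery through arginine-serine-rich domains. hnRNP proteins coat nascent transcripts and often oppose them at silencer elements. Many SR and hnRNP genes limit their own expression through exons that carry a premature stop codon and send the transcript to nonsense-mediated decay.

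The libraries held 27094222 to 33785682 counts in genes. The members took 1.74% and 1.65% of them in untreated A and B, 1.74% and 1.67% with uridine, 1.66% and 1.63% with unconverted 4sU, 1.46% and 1.42% with SLAM and 1.65% and 1.61% with TUC. Both SLAM libraries were thus the lowest. All 55 members passed the filter on low counts, the smallest count being 131 (Snrpn). Each of the 10 fibroblast marker genes was present, at a summed level of 17400 to 25500 CPM per library (CPM are counts scaled to a common library total), whereas the markers found for epithelial (2 of 4) and endothelial cells (3 of 4) summed to at most 0.159 and 1.06 CPM. Macrophage markers (3 of 4) summed to 7.50 to 16.4 CPM, mostly Cd68, with Ptprc at 0.0429 CPM, and neuronal markers (3 of 4) to 2.23 to 5.13 CPM, mostly Tubb3. Every member had a count that was not whole in at least 1 library, so reads shared between genes appear to have been divided. Splicing factor genes with close relatives or many processed copies, such as Hnrnpa1, Hnrnpa3 and several Sm genes, are therefore uncertain to that extent. The spans of 18 members overlapped another gene in RefSeq's GRCm38.p6 names table, among them Snrpn with Snurf and Snhg14, Srsf2 with Mfsd11 and Hnrnpu with Cox20, and the strand setting of the counting is not given in the sources used here.

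Start regions are shown for 4 members that carry the conversion results described further on: Srsf3 and Hnrnpa3, which were low after SLAM, Sf3a2, which was high after SLAM, and Snrpg, which differed most between the chemistries. Each is the 250 bases before the RefSeq transcription start, 5′ to 3′, in build GRCm38.p6: chr17:29032410-29032659, chr2:75659009-75659258, chr10:80798485-80798734 and chr6:86371290-86371539, all on the plus strand. Capitals mark matches on either strand to the CCAAT box, the Sp1 GC box GGGCGG, the ETS core CCGGAA, the TATA box TATAAA and the E-box CACGTG.
Srsf3: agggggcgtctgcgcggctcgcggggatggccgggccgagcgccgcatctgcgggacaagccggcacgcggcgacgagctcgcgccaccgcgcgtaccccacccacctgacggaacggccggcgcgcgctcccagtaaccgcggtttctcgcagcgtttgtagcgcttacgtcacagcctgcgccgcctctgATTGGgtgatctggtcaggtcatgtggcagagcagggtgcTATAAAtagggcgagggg
Hnrnpa3: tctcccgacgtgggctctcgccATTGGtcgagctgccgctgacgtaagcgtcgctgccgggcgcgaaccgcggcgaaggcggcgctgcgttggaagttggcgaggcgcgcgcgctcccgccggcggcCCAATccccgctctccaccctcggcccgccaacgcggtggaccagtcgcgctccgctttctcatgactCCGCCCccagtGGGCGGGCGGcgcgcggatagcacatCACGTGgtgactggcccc
Sf3a2: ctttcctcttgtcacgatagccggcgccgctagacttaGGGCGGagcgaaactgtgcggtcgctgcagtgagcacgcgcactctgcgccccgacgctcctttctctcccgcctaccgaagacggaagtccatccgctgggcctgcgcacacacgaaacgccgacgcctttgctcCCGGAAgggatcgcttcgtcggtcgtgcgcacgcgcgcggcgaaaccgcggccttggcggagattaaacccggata
Snrpg: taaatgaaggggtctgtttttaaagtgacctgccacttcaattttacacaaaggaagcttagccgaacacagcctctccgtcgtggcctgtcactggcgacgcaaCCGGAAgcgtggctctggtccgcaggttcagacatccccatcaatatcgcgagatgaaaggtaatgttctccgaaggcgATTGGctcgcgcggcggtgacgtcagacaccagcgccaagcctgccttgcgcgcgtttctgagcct
Srsf3 held 1 CCAAT match and 1 TATA match. Hnrnpa3 held 2 CCAAT matches, 3 GC boxes of which a pair overlap, and 1 E-box. Sf3a2 held 1 GC box and 1 ETS core, and Snrpg 1 CCAAT match and 1 ETS core. RefSeq's promoter table (250 bases before to 50 after the start) matched 48 of the 55 members. Over that window the GC box occurred in 70.8% of these members and in 35.9% of 27025 promoters, the ETS core in 47.9% and 15.2%, the CCAAT box in 50.0% and 37.9%, the TATA box in 12.5% and 14.2%, and the E-box in 10.4% and 7.24%. These are matches of letters only. The 27025 promoters were not limited to genes expressed in these cells and were not matched for GC content, so the gaps may not be particular to splicing factors.

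In untreated cells the members spanned a wide range of abundance. Per kilobase of the deposited gene length (which length this is, is not stated), Hnrnpa1 was the most abundant at 627.3 CPM per kb, followed by Hnrnpab (390.7), the SR gene Srsf2 (281.6), Hnrnpa2b1 (271.1) and Hnrnpk (256.3). Hnrnpa1 stood at 1333 and 1073 CPM in untreated A and B. The least abundant were Snrpn at 2.33 CPM per kb, Hnrnpr (6.19), Hnrnph3 (8.25), Snrpc (11.0) and Sf3b5 (13.9). Snrpn encodes SmN, the relative of SmB that is known from brain, and stood at 5.26 and 4.39 CPM, against 259.9 and 208.6 CPM for Snrpb. The deposited length of Hnrnpr, 21452 bases, lowers its value per kilobase. By role, the median was 152.9 CPM per kb for the 2 U2AF genes, 119.1 for hnRNP genes, 93.8 for SR genes, 60.2 for SF3 genes, 59.2 for Sm and U snRNP genes and 53.6 for the 2 Tra2 genes.

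The splicing factors ran from mostly new to mostly old RNA after 2 h of labelling, and the level of NTR differed by role. The median NTR over the SLAM libraries (mean of A and B) was 60.7% for SR genes, 65.9% for the Tra2 pair, 51.4% for SF3, 41.6% for U2AF, 39.5% for hnRNP and 26.8% for Sm and U snRNP genes. The median over the 10202 genes with a mean of 100 counts or more was 56.6%, and over all members 43.6%. Of the members, 14 of 55 lay above the median of all genes: 7 of 10 SR genes, 1 of 2 Tra2 genes, 4 of 9 SF3 genes, 2 of 20 hnRNP genes, and 0 of the 12 Sm and U snRNP genes and 0 of the 2 U2AF genes. The TUC libraries gave the same 8 highest members and 7 of the same 8 lowest, and the Spearman coefficient between the chemistries across the 55 members was 0.994, as a description.

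Srsf4 had the highest NTR, at 83.3% and 87.9% in SLAM A and B and 84.5% and 88.1% in TUC A and B. The deposited 0.05 and 0.95 quantiles of its estimate in SLAM A were 81.5% and 85.1%, so the error of a single estimate was smaller than the gap between the letters. Tra2b, an enhancer-binding activator, followed at 78.2% and 86.3% with SLAM and 81.6% and 88.6% with TUC, and Srsf10, an SR protein that acts as a repressor when dephosphorylated, at 75.6% and 80.4% with SLAM. The next were Sf3a1, Sf3a2 and Sf3b4, which encode U2 snRNP proteins that hold the branch site region, at SLAM means of 77.8%, 74.2% and 73.4%. Srsf11 and Srsf3 completed the 8 highest with 66.0% and 63.6%. Of the other reference SR genes, Srsf2 stood at 58.9% and 65.0%, Srsf7 at 54.1% and 64.6% and Srsf1 at 48.1% and 54.3% in SLAM A and B. The lowest SR gene mean was 45.7%, so SR genes overlapped the upper hnRNP genes. The Tra2 genes differed from each other more than A from B: Tra2a stood at 44.6% and 54.6%, below Tra2b in every converted library.

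Most Sm ring genes were among the members with the least new RNA, except Snrpd1, which stood at 38.7% and 48.6% in SLAM A and B and 42.5% and 49.7% in TUC A and B, near the median of all members with SLAM (43.6%). Snrpg stood at 13.6% and 16.6% in SLAM A and B and 14.8% and 17.5% in TUC A and B, Snrpd2 at 14.8% and 18.9% with SLAM, Snrpe at 17.8% and 21.4% and Snrpf at 19.0% and 21.6%. Snrpn was lower still at 6.66% and 17.5%, but on few reads: the quantiles of its estimate ran from 4.12% to 10.8% in SLAM A and from 12.9% to 23.5% in SLAM B, so its place below Snrpg is not settled. Hnrnpa1 (19.1% and 26.2%) and Hnrnpa2b1 (18.2% and 27.8%), a pair of closely related silencer-binding proteins, lay among the Sm genes, as did Snrpd3 (mean 26.4%). Snrpb, which makes SmB, was higher at 29.4% and 33.6%. Under the assumption of a steady state, which the treatment may not meet, the NTR corresponds to half-lives of 0.774 h and 0.658 h for Srsf4 in SLAM A and B, 2.11 h and 1.77 h for Srsf1, 6.56 h and 4.57 h for Hnrnpa1 and 9.48 h and 7.65 h for Snrpg.

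Between these ends lay most hnRNP, SF3 and U2AF genes. U2af1 and U2af2, the subunits that read the AG and the pyrimidine tract, had like NTR in SLAM A and B (35.7% and 47.8%, and 37.1% and 45.8%). Hnrnpu, a nuclear matrix protein, stood at 49.8% and 63.4% and Hnrnpk, a binder of C-rich RNA, at 29.8% and 37.5%. Sf3b1, which grips the branch point helix, stood at 45.4% and 57.3%, whereas Sf3b5 and Sf3b2 of the same complex had SLAM means of 27.8% and 32.8%. The SF3B subunits thus ranged from 27.8% to the 73.4% of Sf3b4. NTR was higher in B than in A for 55 of 55 members with SLAM and 54 of 55 with TUC, the exception being Sf3a2 with TUC. The same direction held for 84.8% and 85.1% of all genes, so the letters differed across the transcriptome.

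**Figure D1:**
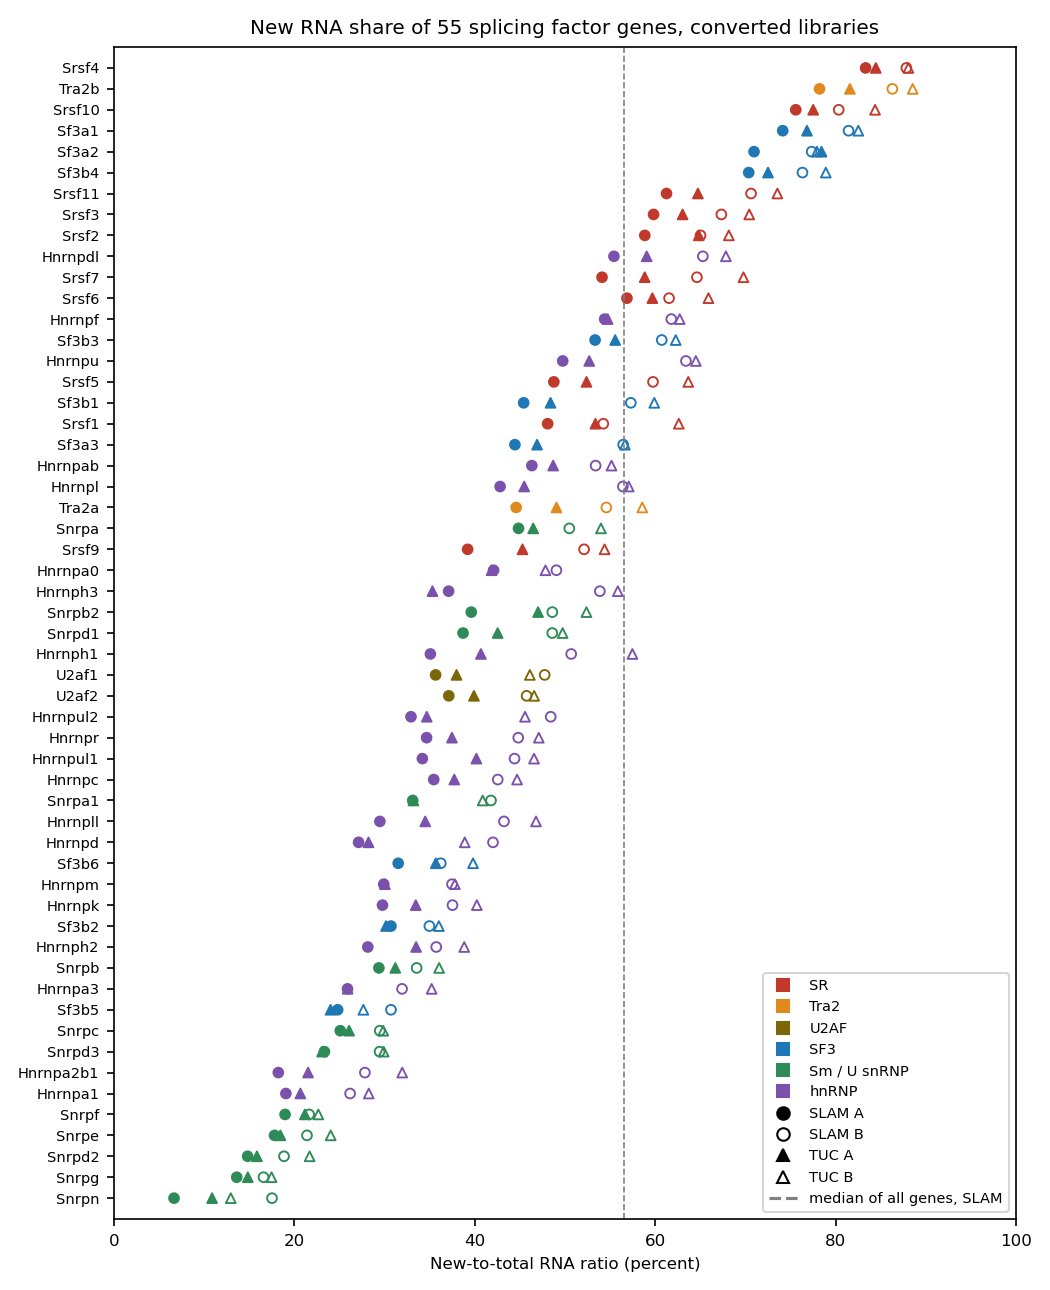
New-to-total RNA ratio in percent (x axis) of each of the 55 members (y axis, ordered by the mean of the SLAM libraries), with circles for SLAM, triangles for TUC, filled symbols for A, open symbols for B and colours for the roles. Srsf4 is at the top between 83.3% and 88.1%, Snrpg and Snrpn are at the bottom, and the dashed line is the median of all genes with SLAM, 56.6%.

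TUC libraries gave somewhat higher NTR than SLAM libraries for most members, but no member passed the test. NTR was higher with TUC than with SLAM in both letters for 45 of 55 members, against 47.4% of all genes, with all 10 SR genes, both Tra2 genes, 16 of 20 hnRNP genes, 9 of 12 Sm and U snRNP genes, 7 of 9 SF3 genes and 1 of 2 U2AF genes among them. The median difference was 2.15 percentage points over members and 0.96 over all genes. Srsf1 had the largest, 5.30 points in A and 8.37 in B, from 48.1% to 53.4% and from 54.3% to 62.6%. Hnrnph1, which binds G-rich tracts, followed with 5.60 and 6.79 points, then Snrpb2 of the U2 snRNP (7.41 and 3.78), Srsf7 (4.73 and 5.16) and Srsf2 (5.98 and 3.14). At the other end, Sf3b5 was lower with TUC in both letters (-0.79 and -3.06 points), as was Hnrnpa0 (-0.23 and -1.21), while Hnrnpd, Hnrnpul2 and Snrpa1 changed sign between letters. limma on the log2 odds of NTR called 0 members and 27 of 10202 genes (0.265%), with 0 members and 245 genes at an unadjusted p under 0.05. With the letter as a block it called 0 members and 0 genes, with 2 members and 806 genes at an unadjusted p under 0.05, and the smallest adjusted p of a member was 0.573.

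Libraries without conversion gave the background level of NTR, the source of which was not tested. Members had a median of 1.48% and 1.00% in uridine A and B and 1.57% and 1.58% in unconverted 4sU A and B. The highest value was 5.54%, for Sf3a2 in unconverted 4sU A. Unconverted 4sU exceeded uridine in both letters for 30 of 55 members, against 55.8% of all genes, a like share. Even Snrpg in SLAM A, at 13.6%, lay above every unconverted value of a member, and only Snrpn in SLAM A, at 6.66%, came close.

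No splicing factor passed the test between uridine, the unmodified nucleoside at the dose of 4sU, and untreated cells. edgeR's quasi-likelihood test called 0 of 55 members and 0 of 12218 genes, a background of 0%, with 0 members and 46 genes at an unadjusted p under 0.05. DESeq2 called 0 members, and with the letter as a block edgeR called 0 members and 1 gene (0.00818%). Log2 fold changes of members ranged from -0.13 ± 0.084 (SE) for Sf3a2, at 55.3 and 57.9 CPM with uridine and 62.6 and 61.1 CPM without, to 0.15 ± 0.16 for Sf3b6. Srsf1 stood at 532.8 and 541.5 CPM with uridine and 510.9 and 511.1 CPM without, Hnrnpa1 at 1322 and 1126 against 1333 and 1073 CPM, and Snrpb at 266.7 and 217.1 against 259.9 and 208.6 CPM. The median over members was 0.02 on the log2 scale.

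With unconverted 4sU, no splicing factor passed against untreated cells without the letter, and a few moved modestly once the letter was a block. In bulk RNA, a change in some cells and a smaller one in all cannot be told apart. The test without the letter called 0 members and 20 genes (0.164%), with 0 members and 1102 of 12218 genes at an unadjusted p under 0.05. DESeq2 called 0 members and 1.97% of genes. With the block, 5 of 55 members rose and 3 fell, against 6.97% of all genes higher and 12.9% lower. The share that rose was near that of all genes, and the share that fell was below it. Srsf5, an SR protein, fell from 303.2 and 387.9 CPM to 246.2 and 315.8 CPM (log2 fold change -0.30 ± 0.052, adjusted p = 0.000687, edgeR with the block). The fall was seen within each letter although the group values overlap, because B was above A in both groups. Hnrnpul2, an hnRNP U-like protein, fell by 0.29 on the log2 scale and Hnrnpa3 by 0.19. Snrpa1, the U2 A′ protein, rose from 64.0 and 56.7 CPM to 85.1 and 66.1 CPM (0.32 ± 0.061, adjusted p = 0.00167), Hnrnpc, which binds uridine tracts, by 0.23, Snrpc by 0.22, Srsf4 by 0.20 and U2af2 by 0.19. The other reference genes were not called in this comparison. Most blocked calls were lost without untreated A, unconverted 4sU A or unconverted 4sU B, and fewer without untreated B, while all 8 kept their sign. Scaling by library totals gave 3 higher and 6 lower.

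Against uridine instead, the same 4sU libraries gave 0 called members and 0.254% of all genes without the letter. At an unadjusted p under 0.05 there were 1 member and 1237 of 12218 genes. DESeq2 called 0 members and 2.28% of all genes. With the letter as a block 6 members were higher and 6 lower, where 6.48% of all genes were higher and 13.3% lower. The 4sU libraries are shared with the comparison against untreated cells, so the values are not independent. Srsf5 (-0.29), Hnrnpul2 (-0.24), Hnrnpd (-0.22), Srsf7 (-0.18), Srsf10 (-0.16) and Hnrnpr (-0.15) fell, and Sf3b5 (0.32), Snrpa1 (0.28), Snrpd2 (0.22), Sf3b4 (0.21), U2af2 (0.20) and Srsf4 (0.19) rose. Srsf7 stood at 217.0 and 184.3 CPM with 4sU and at 254.5 and 202.3 CPM with uridine. Blocked calls fell to 3 without uridine A, 1 without uridine B, 2 without unconverted 4sU A and 2 without unconverted 4sU B, and library totals gave 5 higher and 9 lower.

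Relative to unconverted 4sU, SLAM libraries held less RNA of most Tra2, SR and hnRNP genes and more of a few SF3 and Sm genes, once the letter entered the fit. Without the letter, edgeR called only Sf3a2 of the 55 members, and 0.344% of all genes. At an unadjusted p under 0.05 there were 15 members and 2284 of 12218 genes. DESeq2 called 2 members higher and 7 lower, against 3.05% and 2.67% of all genes. With the letter as a block, 11 of the 55 members rose and 24 fell, against 20.0% of all genes higher and 21.6% lower. The share that rose was thus like that of all genes, and only the share that fell was larger. Read depth, on which a call depends, was not matched between members and all genes. Without regard to a fit, 7 members were higher and 24 lower in both SLAM libraries than in both unconverted ones, where 20.8% and 22.6% of all genes were. By that count the share that was higher lay below that of all genes. The median over members was -0.10 on the log2 scale, while that over all genes was 0.0023.

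Sf3a2, a subunit of the SF3A complex, stood at 93.7 and 95.3 CPM in SLAM A and B, at 60.6 and 64.1 CPM in unconverted 4sU A and B, and at 62.6 and 61.1 CPM in untreated A and B. Both SLAM libraries were above every other library. The log2 fold change was 0.60 ± 0.084 (SE; adjusted p = 0.0444, edgeR without the letter), and 0.60 ± 0.059 with it (adjusted p = 3.57e-06). The first call was lost with library totals (adjusted p = 0.0727) and when any 1 library was left out: SLAM B (0.0655), SLAM A (0.168), or the unconverted A (0.261) or B (0.398), while the value stayed between 0.56 and 0.64. Sf3b4, an SF3B subunit, rose from 129.6 and 128.3 CPM to 189.9 and 173.2 CPM (0.49 ± 0.059, adjusted p = 1.46e-05 with the block; 0.0681 without). Sf3b5 rose by 0.32, and Sf3b1 and Sf3b3 fell by 0.29 and 0.28, so 3 of the 9 SF3 genes rose and 2 fell. Sf3a1, at 197.6 and 203.5 CPM against 193.1 and 192.6 CPM, was not called.

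Of the SR genes, 6 of 10 fell and 1 rose with the block (median -0.24). Srsf3 stood at 425.2 and 352.3 CPM after SLAM against 541.3 and 516.3 CPM unconverted, with no overlap between the groups (-0.45 ± 0.056, adjusted p = 2.06e-05 with the block; 0.15 without). Srsf1, the archetypal SR protein, fell from 487.3 and 506.1 CPM to 392.2 and 370.4 CPM (-0.38 ± 0.053, adjusted p = 4.73e-05 with the block; 0.0897 without), which is below each of the other libraries. Srsf10 (-0.41), Srsf5 (-0.36), Srsf7 (-0.24) and Srsf11 (-0.24) fell too. DESeq2 without the letter also called Srsf1, Srsf10 and Srsf3. Srsf4 alone of the SR genes was called higher, from 80.9 and 76.4 CPM to 96.3 and 85.7 CPM (0.21 ± 0.063). Srsf2, at 586.1 and 591.1 CPM against 529.0 and 589.9 CPM, and Srsf9, at 84.41 and 63.46 CPM against 74.21 and 59.55 CPM, were higher in both letters but not called. Both Tra2 genes fell, Tra2b by 0.30 and Tra2a by 0.25. Neither U2AF gene was called (U2af1 -0.10, U2af2 0.13).

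Of the hnRNP genes, 12 of 20 fell and 2 rose (median -0.21). Hnrnpa3 had the largest fall of any member, from 940.1 and 929.3 CPM to 630.2 and 648.8 CPM (-0.55 ± 0.062, adjusted p = 9.5e-06 with the block; 0.0681 without). Both SLAM libraries were lower than the other 8. Hnrnph1 (-0.38), Hnrnpul2 (-0.35), Hnrnpr (-0.34), Hnrnpa1 (-0.32), Hnrnpu (-0.20) and Hnrnpa2b1 (-0.19) fell as well. Hnrnpa1 stood at 1120 and 907.6 CPM against 1357 and 1172 CPM. Hnrnpk had a log2 fold change of -0.06 and was not called. The pair that rose were Hnrnpul1 (0.22) and Hnrnpl (0.15), a binder of CA-rich RNA.

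The Sm and U snRNP genes split. Snrpb rose from 280.8 and 222.5 CPM to 412.3 and 277.7 CPM (0.44 ± 0.063, adjusted p = 5.82e-05 with the block; 0.326 without), a rise within each letter although SLAM B lay just below unconverted A. Snrpa, the U1 A protein (0.26), Snrpd2 (0.26), Snrpf (0.24) and Snrpc, the U1 C protein (0.23), rose, whereas Snrpg (-0.30) and Snrpe (-0.18) fell. The Sm ring therefore held members of both directions. Snrpn had a value of 0.15 and was not called. Blocked member calls ranged from 26 to 38 when each library in turn was left out, and all 35 kept their sign each time.

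**Figure D2:**
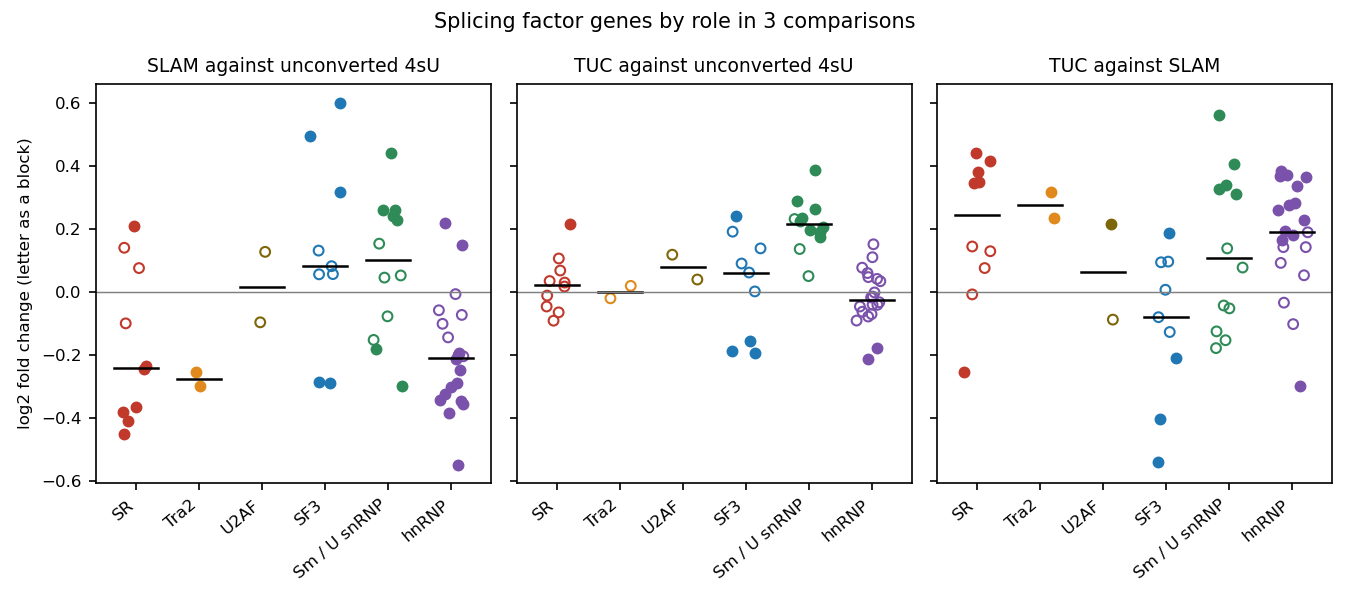
Log2 fold change with the letter as a block (y axis) of the 55 members by role (x axis) in 3 comparisons, with filled points for members past an adjusted p of 0.05 in edgeR, open points for the others and a bar at the median of each role. SR, Tra2 and hnRNP medians lie at -0.24, -0.28 and -0.21 for SLAM against unconverted 4sU, and all 12 Sm and U snRNP genes lie above 0 for TUC against unconverted 4sU.

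**Figure D3:**
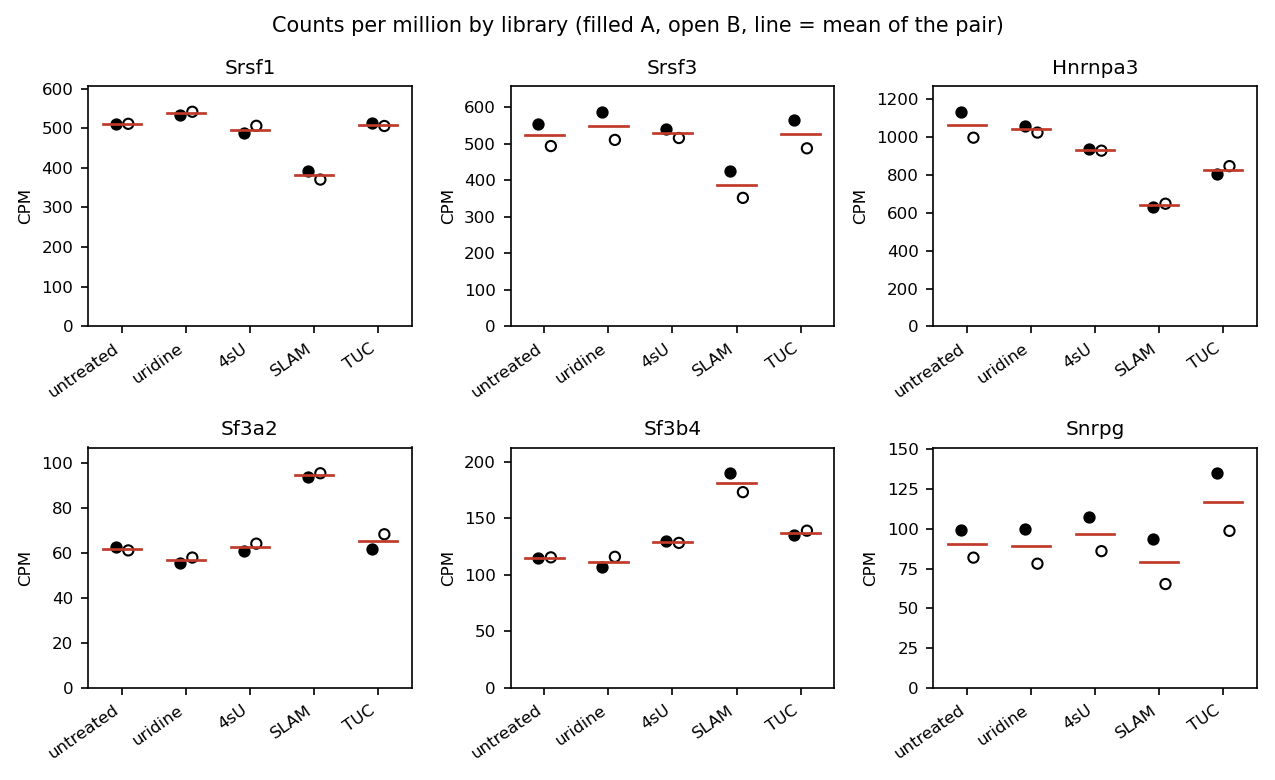
CPM (y axis, from 0) in each library for 6 members by group (x axis), with filled points for A, open points for B and a line at the mean of the pair. Srsf1, Srsf3 and Hnrnpa3 are lowest and Sf3a2 and Sf3b4 highest in both SLAM libraries, and Snrpg is higher in A than in B in every group.

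After TUC conversion, Sm and U snRNP genes were the members that mostly rose against unconverted 4sU, and only with the letter as a block; the median log2 fold change was 0.02 for SR genes (-0.0023 when scaled by library totals) and -0.03 for hnRNP genes. Without the letter edgeR called 0 members and 0 of 12218 genes (0%), with 0 members and 846 genes at an unadjusted p under 0.05. DESeq2 called 0 members and 0.131% of genes. With the block 11 members rose and 5 fell, against 11.6% of all genes higher and 14.2% lower, and library totals with the block gave 6 higher and 5 lower. The calls depended on each library: 0 were left without unconverted 4sU A and 3 without unconverted 4sU B, TUC A or TUC B. Of the Sm and U snRNP genes 9 of 12 rose and 0 fell, with all 12 values above 0 (median 0.22). With library totals 5 of 12 were called higher, and all 12 values stayed above 0. Snrpd3 rose from 102.7 and 89.6 CPM to 144.4 and 108.9 CPM (0.39 ± 0.069, adjusted p = 0.00126 with the block; 0.704 without). Snrpb (0.29), Snrpg (0.26), Snrpb2 (0.23), Snrpe (0.23) and Snrpd2 (0.21) followed, with Sf3b6, the SF3B subunit that contacts the branch point adenosine (0.24), and Srsf9 (0.22). Those that fell were Hnrnpul2 (-0.21), Sf3b1 (-0.19), Sf3b3 (-0.19), Hnrnpa3 (-0.18) and Sf3a1 (-0.15). Srsf1 stood at 511.9 and 505.6 CPM and Srsf3 at 564.4 and 488.0 CPM with TUC, with log2 values of 0.03 ± 0.053 and -0.01 ± 0.056 that were not called.

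Set directly against each other, the chemistries differed in 31 splicing factors with the letter as a block and in 0 without it. The test without the letter called 0 members and 0 genes (0%), with 16 members and 1205 of 12218 genes at an unadjusted p under 0.05. DESeq2 called 5 members, with Srsf1, Srsf10 and Hnrnpa3 higher with TUC and Sf3a2 and Sf3b4 lower, against 0.614% and 0.868% of genes. With the block 26 members were higher with TUC and 5 lower, against 10.0% and 10.1% of all genes. These shares were not matched for read depth, on which a call depends. In 24 members both TUC libraries lay above both SLAM libraries and in 6 below, where 15.4% and 15.6% of all genes did. By role, 5 of 10 SR genes rose and 1 fell, 2 of 2 Tra2 genes rose, 1 of 2 U2AF genes rose, 12 of 20 hnRNP genes rose and 1 fell, 5 of 12 Sm and U snRNP genes rose and 0 fell, and 1 of 9 SF3 genes rose and 3 fell.

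Snrpg had the largest value, at 134.9 and 98.7 CPM with TUC against 93.5 and 65.3 CPM with SLAM (0.56 ± 0.062, adjusted p = 3.63e-05 with the block; 0.487 without). Both TUC libraries lay above both SLAM libraries. Srsf3 (0.44 ± 0.056, adjusted p = 0.000104 with the block; 0.359 without) and Srsf1 (0.42 ± 0.053, adjusted p = 9.62e-05; 0.241 without) came next, with the group values again apart. Snrpe (0.41), Hnrnpa1 (0.38), Srsf5 (0.38), Hnrnpa3 (0.37), Hnrnpdl (0.37), Srsf7 (0.35) and Tra2b (0.32) were also higher with TUC. Sf3a2 was lower, at 61.9 and 68.2 CPM against 93.7 and 95.3 CPM (-0.54 ± 0.059, adjusted p = 3.43e-05 with the block; 0.22 without), as were Sf3b4 (-0.40), Hnrnpul1 (-0.30), Srsf4 (-0.26) and Sf3a1 (-0.21). Snrpb (-0.15) was not called. Without TUC A 21 of the 31 blocked calls remained and without TUC B 26 did, while 30 remained without either SLAM library.

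**Figure D4:**
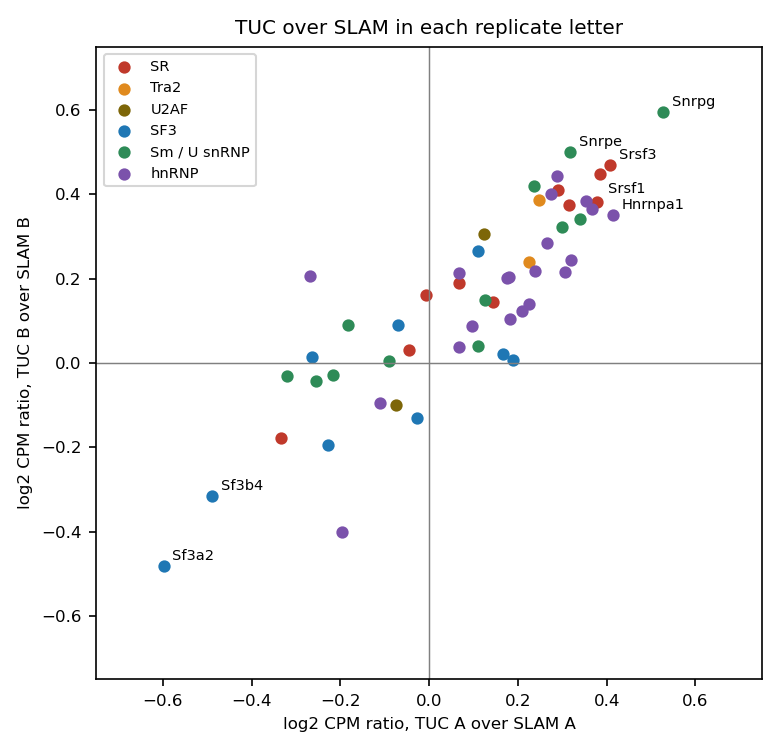
Log2 ratio of CPM, TUC over SLAM, in letter A (x axis) and letter B (y axis), 1 point per member coloured by role. 37 members lie above 0 in both letters and 11 below 0 in both, with Snrpg at the upper right and Sf3a2 and Sf3b4 at the lower left. The shares of all genes above or below 0 in both letters were not counted.

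Multiplying CPM by NTR splits each difference between the chemistries into new and pre-existing RNA. The median log2 ratio of TUC over SLAM was 0.22 for new RNA and 0.10 for pre-existing RNA over members, against 0.045 and -0.042 over all genes. New RNA was higher with TUC in both letters for 40 of 55 members (72.7%; 43.3% of all genes) and pre-existing RNA for 32 (58.2%; 24.1%). Among SR genes the median was 0.31 for new RNA, with 9 of 10 higher in both letters, and 0.06 for pre-existing RNA, with 5 of 10. Srsf1 had 0.54 and 0.66 for new RNA in A and B and 0.23 and 0.16 for pre-existing RNA. Snrpg was high in both parts, with 0.65 and 0.67 new and 0.51 and 0.58 pre-existing, and Sf3a2 low in both, with -0.45 and -0.47 new and -1.03 and -0.52 pre-existing. No test was made on these products, which carry the error of both values.

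Splicing genes outside these families were counted from a textbook list of 104 genes, 103 of them in the table and 101 tested. edgeR called 0 of them without the letter in each of the 6 comparisons. Between 0 (uridine against untreated) and 25 (SLAM against unconverted 4sU) had an unadjusted p under 0.05, where 46 and 2284 of 12218 genes did. DESeq2 called 7 lower with unconverted 4sU against untreated cells, 6 lower against uridine, 2 higher and 10 lower after SLAM, 0 after TUC and 2 higher with TUC than with SLAM. Once blocked by letter, 2 rose and 23 fell with unconverted 4sU against untreated cells (6.97% and 12.9% of all genes), and 0 rose and 30 fell against uridine (6.48% and 13.3% of all genes). Kinases of SR proteins took part in this: 5 of 7 fell in each of these comparisons, among them Srpk1, which phosphorylates SR proteins in the cytoplasm (from 182.0 to 129.1 CPM on average, -0.50 ± 0.052 against untreated). The regulator Rbm5 (-0.67), the helicase Ddx42 (-0.56) and the spliceosome protein Cwc22 (-0.49) fell too, and Lsm4 and Lsm7 rose by 0.34 and 0.25. After SLAM 12 rose and 48 fell against unconverted 4sU, where 20.0% of all genes rose and 21.6% fell, with Prpf4b (-0.62), Ptbp3 (-0.60), Son (-0.58) and Clk1 (-0.45) lowest and Pcbp1 (0.48) and Pcbp2 (0.43), a pair of binders of C-rich RNA, highest. After TUC 12 rose and 26 fell, where 11.6% and 14.2% of all genes did, with Srrm2 (-0.49) and Son (-0.47) lowest and Snrnp27 (0.38) highest. Between the chemistries 27 were higher with TUC, led by Lsm8 (0.50) and Ptbp3 (0.43), and 7 lower, led by Pcbp1 (-0.30), where 10.0% and 10.1% of all genes were. The SLAM median NTR was 91.3% for the 7 kinases of SR proteins, with Clk1 at a mean of 99.1%, and 83.0% for 13 SR-related proteins, beside 60.7% for the SR genes. It was 48.9% for the 8 LSm genes, which form a ring like that of the Sm proteins, beside 26.8% for the Sm and U snRNP genes. Like the Sm and U snRNP genes, all 8 LSm genes lay above 0 for TUC against unconverted 4sU (median 0.22). With the block 4 of them were called higher, and 1 when scaled by library totals.

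Across the 55 members, the SLAM log2 fold change against unconverted 4sU had a Pearson coefficient of -0.05 and a Spearman coefficient of -0.17 with SLAM NTR, where 10202 genes gave -0.37 and -0.39. For TUC the coefficients with TUC NTR were -0.43 and -0.42 over members and -0.42 and -0.45 over all genes. Both kinds of value come from the same converted libraries. High NTR members lay at both ends after SLAM, with Sf3a2 and Sf3b4 at the top and Srsf3 and Srsf10 near the bottom. The deposited length gave Spearman coefficients of -0.47 for SLAM, -0.71 for TUC and -0.56 for unconverted 4sU against untreated cells over members, and -0.57, -0.73 and -0.47 over all genes, so shorter genes tended to higher values. The Sm and U snRNP genes, which mostly rose with TUC in the blocked fit, had a median deposited length of 1700.5 bases, against 3714.5 bases for hnRNP genes. The part of length in these results was not tested.

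The replicate letters also differed in the CPM of these genes. All 12 Sm and U snRNP genes were higher in A than in B in each of the 5 groups, led by Snrpd2, whose log2 difference was 0.50, 0.49, 0.58, 0.75 and 0.48 in untreated, uridine, unconverted 4sU, SLAM and TUC libraries. U2af1 (mean 0.40), Srsf7 (0.31), Srsf9 (0.31) and Hnrnpa1 (0.29) were also higher in A throughout. Srsf5 was higher in B throughout (mean -0.37), as were Hnrnph1 (-0.25), Sf3b1 (-0.24) and Srsf11 (-0.19). In all, 40 of 55 members kept 1 sign in the 5 groups, 33 of them higher in A. The share of all genes that kept 1 sign was not counted, so these counts may not be particular to splicing factors. A minus B differences correlated between groups across all genes tested (r 0.695 to 0.79). The common dispersion over all genes was 0.0187 without the letter in the fit and 0.00195 with it.

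**Figure D5:**
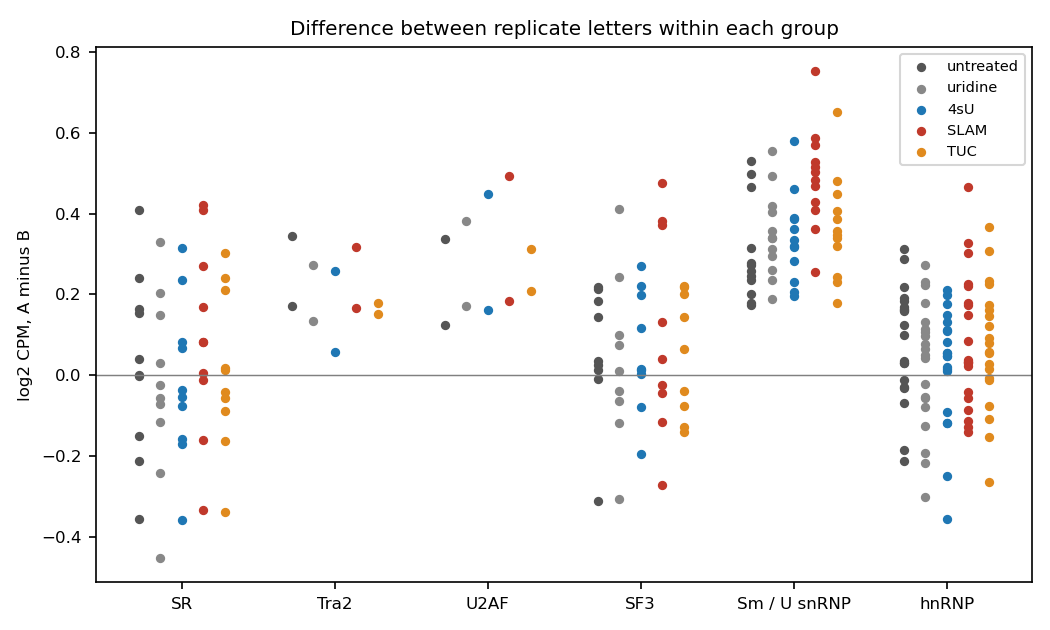
Log2 difference in CPM, A minus B (y axis), of each member within each of the 5 groups (colours), by role (x axis). All Sm and U snRNP points lie above 0, up to 0.75 for Snrpd2 in the SLAM libraries, whereas SR genes lie on both sides, down to -0.45 for Srsf5 with uridine.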

How the data were processed

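RNA-seq values of 10 libraries were taken from 1 deposited table of 17053 genes. The tools named per the submitters' processing notes are STAR 2.7.10b, Bowtie2 2.3.0 and cutadapt, the last without a version. Build, annotation, counter, strand setting and the estimator of new RNA: not given in the sources used here. The deposited values are unscaled expected counts per gene, per the file headers, and in each library 24.8 to 30.3% of genes were not whole. A fraction per gene was deposited for 8 libraries as a posterior mode, mean and 0.05 and 0.95 quantiles, per the file headers, which do not name it. It is read here as the NTR because it lies near 0 without conversion. The deposited gene length is an other value whose kind is not stated, and 16 columns of shape values were not used.

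Groups and letters came from the sample titles. Counts were rounded, filtered with filterByExpr (12218 genes), scaled by TMM and tested in 1 fit of edgeR 4.0.16 (quasi-likelihood, R 4.3.3) over all libraries with Benjamini-Hochberg adjustment at 0.05; groups of 2 share the spread. CPM use TMM-scaled totals. Shares of all genes set beside counts of called genes cover all genes tested and were not matched for read depth. NTR was tested with limma 3.58.1 on log2 odds (limits 0.001 and 0.999) for 10202 genes with a mean of 100 counts or more in the converted libraries. DESeq2 1.42.0, library totals, other filters, left-out libraries and the letter as a block were alternatives. What libraries of 1 letter have in common is not labelled. The letters were taken to pair libraries because A minus B differences correlated across genes between groups (r 0.695 to 0.79 over 10 pairs of groups), so blocked values stand beside the main ones. A chi-square over genes exceeded sampling noise within every group (38.4 to 78.1 for each degree of freedom), and the closest pair across groups, untreated B and uridine B, gave 3.37. On counts simulated for SLAM against unconverted 4sU over 12218 genes, changes of 0.3, 0.6 and 1 (log2) were called in 0%, 5.97% and 47.0% of changed genes without the block and 52.2%, 79.1% and 89.4% with it. The simulation gave each gene a letter effect alike in all groups and a fixed spread close to that of the blocked fit. Only 66 or 67 genes changed at each size, far fewer than the blocked fit called in the data. The gain with the block was therefore built in, and these shares may not hold for the data.

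The members, roles and lists were chosen with earlier results of these data known. Named were 17 reference members, per comparison the 8 largest and 8 smallest log2 fold changes among called members, the 8 highest and 8 lowest by SLAM NTR, the 5 largest and 5 smallest NTR differences, the 5 most and 5 least abundant, and up to 4 other splicing genes each way; single genes beyond these were chosen after their values were seen.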

Additional observations from a re-analysis of the deposited data

Results flagged for a closer look

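For 12 members the 2 chemistries moved in opposite directions from the shared unconverted 4sU libraries in both letters, and the difference between TUC and SLAM passed edgeR's test with the letter as a block. That is 21.8% of the 55 members, where 719 of 12218 genes tested (5.88%) met the same criteria. These shares were not matched for read depth, on which a call depends. In untreated CPM per kb, members ran from percentile 45.7 (Snrpn) to percentile 99.6 (Hnrnpa1) of all genes. As the log2 value of TUC against SLAM, Snrpg stood at 0.561, Snrpe at 0.407 and Snrpd1 at 0.325, 3 genes of the Sm ring, and Snrpb2 of the U2 snRNP at 0.31. Srsf5 stood at 0.381 and Srsf7 at 0.349, both SR genes, and Hnrnpdl at 0.367, Hnrnpd at 0.364 and Hnrnpc at 0.182 among the hnRNP genes. U2af1 stood at 0.214. Srsf4 at -0.255 and Sf3a1 at -0.21 went the other way, higher with SLAM and lower with TUC. Without the block none of these passed. The sign in each letter was read without a test, and several log2 values against unconverted 4sU were small. With TUC, Srsf5 stood at 0.0282 and 0.00622 and Hnrnpdl at 0.149 and 0.00672 in A and B. Srsf4 stood at -0.0114 in TUC B, U2af1 at 0.0505 in TUC A, and Hnrnpc at -0.0506 in SLAM A and 0.0435 in TUC B. Sf3a1 stood at 0.0329 in SLAM A and was not called after SLAM. Library totals shifted the median of all genes by -0.037 for SLAM and -0.025 for TUC against unconverted 4sU.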

How the results depend on the processing

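The replicate block moved the calls most: members called went from 0 to 8 for unconverted 4sU against untreated, 0 to 12 against uridine, 1 to 35 for SLAM and 0 to 16 for TUC against unconverted 4sU, and 0 to 31 for TUC against SLAM; it changed no other call of these counts. Without the block, DESeq2 called 9 members for SLAM and 5 for TUC against SLAM, and library totals called 0 for SLAM, as did leaving out any of SLAM A, SLAM B, unconverted 4sU A or B (0 to 0). Leaving out 1 library under the block gave 2 to 7 calls for unconverted 4sU against untreated, 1 to 3 against uridine, 0 to 3 for TUC against unconverted 4sU, 26 to 38 for SLAM and 21 to 38 for TUC against SLAM; where an arm keeps 1 library, that library is assumed to vary like the others. Under the block, library totals turned 5 higher and 3 lower into 3 and 6 (unconverted 4sU against untreated), 6 and 6 into 5 and 9 (against uridine) and 11 and 5 into 6 and 5 (TUC against unconverted 4sU). No value of a named member that was called changed sign under any alternative run. Library totals shifted the median of all genes by at most 0.037 (-0.037 for SLAM). NTR tests called 0 members under every alternative run. In the simulation with 2 libraries a group, 0% of changes of 0.3 on the log2 scale were called without the block, a share that may not hold for the data.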
